A study of Mus musculus with 27 samples.

Results

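The change of retinoic acid (RA)-treated mouse neural crest explants between 6 and 12 h of exposure was taken from 3 arrays of explants exposed for 6 h and 3 arrays of explants exposed for 12 h, of 27 arrays in all. They were chosen by their titles. Every explant came from a murine dorsal neural tube that had been split along the midline. One side of each embryo was left as control, and the other side received RA at 1e-06 M, dissolved in ethanol. No strain, embryo age or number of embryos per array is named in the labels, and they do not say whether the controls received ethanol. For the 6 h exposures the labels describe a night of culture on fibronectin, in DMEM with horse serum, before RA was added. They name no such step for the 12 h exposures, so the total time in culture of the groups is not known. Total RNA was hybridised to Affymetrix MG_U74Av2 arrays, and each array gave 12422 probe sets as RMA intensity, used here on the log2 scale. Array medians lay between 6.53 and 6.60 for the 6 RA arrays.

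RA is the active form of vitamin A. It binds nuclear receptors (RAR with RXR) that sit on hormone response elements and switch on nearby genes, among them Hox genes, which give position along the head-to-tail axis, and Cyp26a1, which breaks RA down. Neural crest cells leave the dorsal neural tube, migrate and form neurons, glia, pigment cells, smooth muscle and the skeleton of the face. Both too much and too little RA disturb their development in the embryo.

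The arrays of the groups came from separate scan days, and this stands beside every result. Arrays 1 and 2 at 12 h were scanned on one day and array 3 on the next of the series' scan days, all from 1 chip lot. At 6 h, arrays 1 and 2 shared one day and lot, and array 3 had another day, with a lot entry that differs in spelling, so it may be another lot or the same one. The first 6 h array was scanned 275 days after the last 12 h array. No scan day held RA arrays of both times, so exposure time, pre-culture, scan day and chip lot cannot be told apart in the difference between the groups. Control arrays of the same number were scanned on the same days as the RA arrays, so control explants saw the same span of days. Their change is therefore given beside that of the RA explants, by gene for most named genes and as counts for some groups of genes. Array correlations within a group ran from 0.9935 to 0.9962 at 6 h and from 0.9897 to 0.9917 at 12 h over all probe sets, against 0.976 to 0.9866 between the RA groups. The labels do not say that replicates were separate cultures, so the spread among arrays may be technical. The p values rest on a spread pooled over all 8 groups and 27 arrays, not on the 6 RA arrays alone.

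Several genes listed here as neural crest factors read above the array medians at both times, which is no detection call. In the RA arrays, mean levels at 6 and 12 h were 11.04 and 11.14 for Id2, 9.24 and 8.61 for Snai2, 8.41 and 8.55 for Twist1 and 7.33 and 7.64 for Sox10, all above the array medians. Foxd3, an early crest factor, stood below them at 4.62 and 4.94. So did other factors of the list, among them Dlx5 (4.93 and 4.43) and Prrx1 (3.83 and 3.51). The explants were not pure crest. Markers of neural tube epithelium such as Sox2 (10.18 and 9.22) and of vessel and blood precursors such as Etv2 were also present. In such mixed RNA, fewer cells of a type and less RNA per cell cannot be told apart.

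Between 6 and 12 h, 1197 probe sets changed in RA-treated explants, 634 higher and 563 lower, at a Benjamini-Hochberg adjusted p below 0.05 in limma. That is 9.64% of all probe sets, 5.1% higher and 4.53% lower. Of these, 218 changed by more than 1 on the log2 scale, 84 up and 134 down. The scale did not move as a whole, with a median over all probe sets of -0.015. Controls changed at 674 probe sets (5.43%), 329 higher (2.65%) and 345 lower (2.78%). Of the 1197 RA calls, 1190 (99.4%) had the same sign in controls, against 76.6% of all probe sets. Both comparisons called 494 probe sets, all in the same direction, which is 41.3% of the RA calls and 73.3% of the control calls. These changes share no array, but they share scan days, lots and possibly embryos, since both sides of an embryo were used. The median size of the RA calls was 0.71 in RA explants and 0.51 in controls, a comparison that favours the group in which the calls were made.

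The count of calls leaned on single arrays and on scan day. Left out in turn, RA arrays gave 549 calls without 6 h array 1, 668 without 12 h array 3, 750 without 6 h array 3, and 866 to 904 without each of the rest. A random block for scan day left 509 calls, 506 of them among the 1197. At 1 probe set per gene it left 4.92% of genes, 2.76% higher and 2.16% lower. Of the 106 genes named below that passed, 58 also passed without any one RA array and 61 with scan day as a random block. No gene of these 106 changed sign under any alternative. Below, a gene whose call was lost without 1 RA array is given with the arrays concerned and its highest adjusted p.

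**Figure D1:**
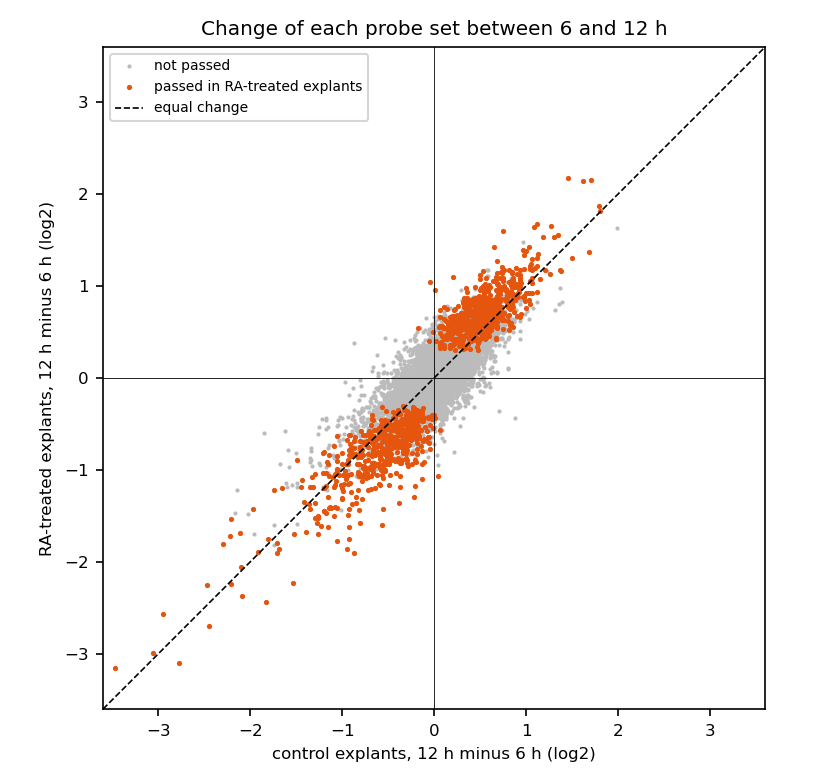
Each point is 1 of 12422 probe sets; the x axis gives the 12 h minus 6 h difference of control explants and the y axis that of RA-treated explants (both log2). The 1197 probe sets that passed in RA explants are in orange, the dashed line marks equal change, and 1190 of the 1197 have the same sign on both axes.

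Whether RA and control explants changed by different amounts was tested directly, as the RA effect at 12 h minus that at 6 h. No probe set passed (0 of 12422; 0.0%). In limma 160 (1.29%) had an unadjusted p below 0.05, and the lowest adjusted p was 1.0. With scan day as a fixed block the lowest adjusted p was 0.236, with 0 calls and 751 probe sets at an unadjusted p below 0.05 in limma. With the pair of control and RA arrays scanned together as a fixed block it was 0.158, with 0 calls and 931 such probe sets. A change named below as present in RA explants is thus not shown to differ from the change in controls. The interval of that difference is given where it matters. All such intervals, and the p values of single genes beside them, come from the fit without blocks. That fit takes no account of the pairs of control and RA arrays.

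Cyp26a1, the cytochrome P450 that clears RA, rose in the treated explants. Its log2 level was 5.83, 5.63 and 5.78 on the 6 h RA arrays and 6.88, 6.60 and 6.64 on the 12 h RA arrays. Every 12 h array stood above every 6 h array. Control arrays lay lower and hardly moved, at 4.63, 4.58 and 4.74 at 6 h and 4.82, 4.62 and 4.53 at 12 h. The RA change was 0.96 (SE 0.19), a 1.94-fold rise, with an adjusted p of 0.00254, and the control change was 0.01 with an adjusted p of 0.995. The difference between these changes was 0.95, with a 95% interval from 0.38 to 1.52 and an unadjusted p of 0.00205 in limma, and did not pass over all probe sets (adjusted p = 1.0). With scan day as a random block the adjusted p of the RA change was 0.0523. The 4 RA arrays of 24 h had a mean level of 6.99.

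The Cyp26a1 promoter is shown because this gene is a textbook direct target and stood out by its flat control level. The 250 bases before its start, on the plus strand of chr19:37697558-37697807 (RefSeq, GRCm38.p6), hold a direct repeat of the receptor binding motif with 5 bases between, in capitals.
Cyp26a1: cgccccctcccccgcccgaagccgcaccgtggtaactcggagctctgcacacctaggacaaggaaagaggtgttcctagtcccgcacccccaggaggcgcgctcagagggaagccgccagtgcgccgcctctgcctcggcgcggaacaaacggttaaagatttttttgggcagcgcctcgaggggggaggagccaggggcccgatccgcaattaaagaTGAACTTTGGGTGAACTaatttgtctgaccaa
The motif was AGGTCA, or the variant spelled AGTTCA, or the variant spelled GGGTCA, or the variant spelled GGTTCA. It had to occur 2 times in one direction with 5 bases between, on either strand, in windows from 250 bases before to 50 after a gene's start. The match starts 32 bases before the start site. Of 32851 such windows in the mouse table, 32 (0.0974%) held a match. Among genes that passed, 1 of 430 higher genes with a window (0.233%), which is Cyp26a1, and 0 of 318 lower genes held one. A match of letters describes this window and is no measure of binding.

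Of the 23 measured genes of retinoid metabolism, binding and reception, 2 rose and 1 fell, that is 13.0% against 11.0% of all 8251 genes when each gene is read by 1 probe set (6.27% higher and 4.73% lower). Their median change was 0.02, beside -0.01 over all genes. Aldh1a2, which makes RA from retinaldehyde, went from 5.53, 5.54 and 5.79 to 6.30, 6.13 and 6.06. The groups did not overlap, and the rise was 0.54 (SE 0.16) (adjusted p = 0.0301). Controls had means of 5.93 and 6.07. The adjusted p of Aldh1a2 was 0.185 with scan day as a random block, and the call was lost for Aldh1a2 (5 of the 6 arrays, p up to 0.127). Nr2f2, the orphan receptor COUP-TFII, fell from 7.99, 7.61 and 7.50 to 5.76, 6.70 and 6.17, again without overlap. Its change was -1.49 (SE 0.31) (adjusted p = 0.00289) and that of controls -0.94 (adjusted p = 0.0745). A dim second Nr2f2 probe set, at means of 3.06 and 2.79, did not pass (adjusted p = 0.174).

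Dhrs3, Csn3, Stra6, Crabp1 and Crabp2, other genes chosen here as RA-responsive, did not pass between the times. Dhrs3, which turns retinaldehyde back into retinol, read 7.36, 7.39 and 7.41 and then 7.62, 7.72 and 7.70 in RA explants. Those groups do not overlap either, but the difference of 0.30 (SE 0.22) had an adjusted p of 0.463, and the control change was 0.45. Against control, Dhrs3 was higher by 1.48 at 6 h (adjusted p = 0.00461) and by 1.33 at 12 h (adjusted p = 0.0161). An RA effect against control passed at 3 probe sets at each of these times (0.0242%). That fit takes no account of the shared embryos of control and RA sides. The labels do not say which arrays shared them, but arrays of one number deviated together at 6 h (correlations of 0.447 to 0.470) and less so at 12 h (-0.052 to 0.257). With each pair of control and RA arrays scanned together as a fixed block, an alternative chosen after seeing the data, 118 probe sets passed at 6 h and 17 at 12 h (0.95% and 0.137%), and with the pair as a random block 62 and 21. Dhrs3 then had an adjusted p of 1.02e-06 at 6 h and 5.45e-06 at 12 h with the fixed block. For Csn3, the milk protein kappa-casein, the RA change was 0.08 (SE 0.21) (adjusted p = 0.861). The retinol uptake receptor Stra6 had a change of 0.33 (SE 0.13) (adjusted p = 0.128). The RA binding proteins Crabp1 and Crabp2 had changes of 0.72 (SE 0.35) and -0.47 (SE 0.35) (adjusted p = 0.221 and 0.46).

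Single Hox genes changed, in both directions. Of 28 measured Hox, Cdx and TALE homeobox genes, 1 rose and 4 fell (17.9%, beside 11.0% of all genes, 6.27% higher and 4.73% lower). Their median change was -0.16, with 8 of 28 above 0. Hoxb1, the hindbrain member that RA induces in the embryo, read 7.42, 7.19 and 6.98 at 6 h and 8.14, 8.75 and 8.06 at 12 h. All 12 h arrays were higher, and array 2 was the highest. The rise was 1.12 (SE 0.24) (adjusted p = 0.00374), beside 0.50 in controls (adjusted p = 0.28). Its interval of difference ran from -0.08 to 1.33.

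Hoxa5, which helps pattern the neck and upper trunk, fell instead. RA arrays read 10.80, 10.55 and 11.25 at 6 h and 9.40, 9.69 and 8.20 at 12 h, and array 3 was the lowest of the latter. Control arrays read 8.22, 9.03 and 8.83 and 7.60, 8.05 and 7.24. The RA groups did not overlap, while the control groups did not either, the highest 12 h control lying at 8.05 and the lowest 6 h control at 8.22. The fall was -1.77 (SE 0.30) in RA explants (adjusted p = 0.00058) and -1.06 in controls (adjusted p = 0.0372), and the difference of -0.71 had an interval from -1.60 to 0.18. The RA mean lay above the control mean by 2.17 at 6 h (adjusted p = 0.0027) and by 1.46 at 12 h (adjusted p = 0.154; 0.00386 with the array pair as a fixed block). At 24 and 48 h the RA means were 10.04 and 10.86.

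Hoxb5, its paralog in the Hoxb cluster, fell by 0.68 on the log2 scale, from 9.05, 8.78 and 8.99 to 8.26, 8.32 and 8.19 (adjusted p = 0.0247; 0.111 with scan day as a random block). Hoxd1 fell by 0.72 (adjusted p = 0.0381), and a second Hoxd1 probe set fell by 1.89 (adjusted p = 0.000146). Hoxb6 fell by 0.45 (adjusted p = 0.0413). Hoxd1 and Hoxb6 did not pass with scan day as a random block (adjusted p = 0.18 and 0.151). The control changes of Hoxb5, Hoxd1 and Hoxb6 were -0.30, -0.75 and -0.35 (adjusted p = 0.473, 0.0464 and 0.17). Leaving out 1 RA array ended the call for Hoxb5 (4 of the 6 arrays, p up to 0.111), Hoxd1 (5 of the 6 arrays, p up to 0.189) and Hoxb6 (5 of the 6 arrays, p up to 0.18). The other 23 did not pass, and ranged from -0.60 for the cofactor Meis2 to 0.26 for Pbx3.

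**Figure D2:**
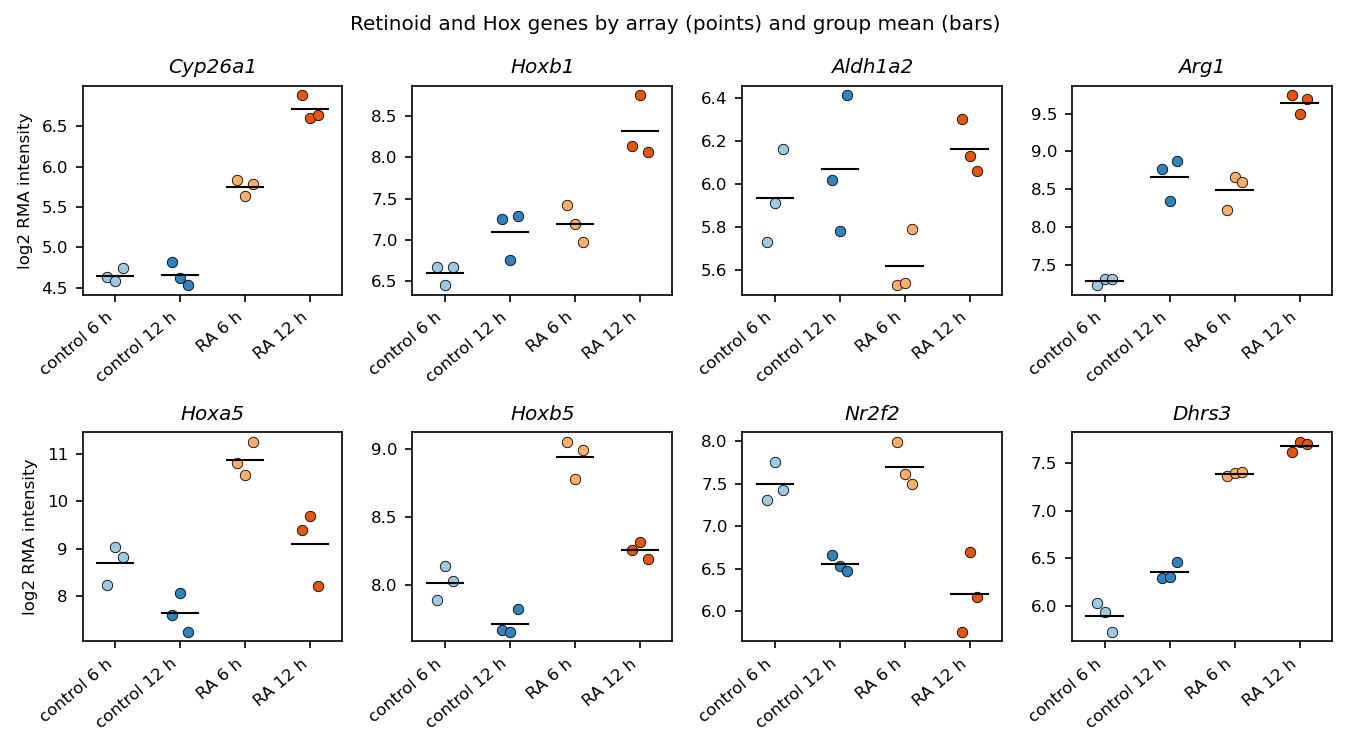
The log2 RMA intensity (y axis) of 8 retinoid, Hox and RA-responsive genes is shown for control and RA explants at 6 and 12 h, with a point for each array and a bar for the group mean; the y axes differ between genes and do not start at 0. Cyp26a1 is flat in controls and higher at 12 h in RA explants, whereas Hoxa5, Hoxb5 and Nr2f2 are lower at 12 h in both treatments. The control changes of Hoxa5, Hoxb5 and Nr2f2 were -1.06, -0.30 and -0.94.

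Arg1, the enzyme that splits arginine into ornithine and urea, read 8.22, 8.66 and 8.59 and then 9.74, 9.50 and 9.70 in RA explants. It rose by 1.16 (adjusted p = 0.00652) without overlap, and by 1.38 in controls (adjusted p = 0.00304), so this rise was not limited to treated explants. Without RA 6 h array 1 its RA change had an adjusted p of 0.0512. The description of 48 h control 3 calls that array RA treated, and with it moved to the RA group the calls of Cyp26a1, Hoxa5, Hoxb5, Hoxb6 and Arg1 were lost (adjusted p = 0.0934, 0.0759, 0.104, 0.0579 and 0.116), as were those of Plat and Nop56, described below (adjusted p = 0.077 and 0.0521). Their fitted changes were the same, since that array is in neither group.

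Genes of vessel and blood precursors gave the largest rises among named genes. Of 24 measured endothelial and blood genes, 5 rose and none fell (20.8%, beside 11.0% of all genes; median 0.03). Etv2, the ETS factor at the head of endothelial and blood fate, read 7.90, 7.92 and 7.61 at 6 h and 10.04, 9.26 and 9.76 at 12 h. Every 12 h array lay above every 6 h array. The rise was 1.87 (SE 0.33), or 3.66-fold (adjusted p = 0.000892). Lmo2, a bridging factor of blood stem cells, read 7.10, 7.19 and 7.07 and 8.98, 8.53 and 9.30, a rise of 1.82 (SE 0.27) (adjusted p = 0.000146). Its second probe set rose by 0.63 (adjusted p = 0.0235).

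Tal1, the partner of Lmo2 in that complex, went from 5.24, 5.05 and 5.05 to 6.00, 6.18 and 6.44 and rose by 1.09 (adjusted p = 0.000146). Eng, the TGF-beta co-receptor endoglin of vessel walls, went from 9.25, 8.90 and 8.48 to 10.04, 10.64 and 10.54 and rose by 1.53 (adjusted p = 0.00316). Tek, the angiopoietin receptor Tie2, rose by 1.06 (adjusted p = 0.0146; 0.0751 with scan day as a random block) and was dim throughout, between 4.12 and 5.91. Controls rose as well, by 1.79 for Etv2, 1.81 for Lmo2, 0.72 for Tal1, 1.30 for Eng and 1.05 for Tek. Of the 24 genes, 7 rose and 1 fell in controls, where 6.23% of all genes passed (3.25% higher and 2.98% lower). For Lmo2 the difference between RA and control change was 0.01, with a 95% interval from -0.77 to 0.80. The mean level of the whole list was 6.39 to 6.42 on the 6 h RA arrays and 6.65 to 6.76 on the 12 h RA arrays, and 6.30 to 6.40 and 6.54 to 6.87 on the control arrays. The call was lost without 1 RA array for Tek (6 h array 1 or 12 h array 3, p up to 0.117). At 24 and 48 h the RA means were 8.98 and 7.90 for Etv2 and 8.48 and 7.57 for Lmo2.

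Of 31 measured genes of mesoderm and skeletal muscle 2 rose and none fell (6.45%, beside 11.0% of all genes and 6.27% higher), a share near the background. Meox1, a homeobox gene of the somites, rose by 1.01 (adjusted p = 0.00135) and Tcf15, also called paraxis, by 0.57 (adjusted p = 0.0247). Their changes in controls were 0.60 and 0.47 (adjusted p = 0.0634 and 0.0967). Leaving out 1 RA array ended the call for Tcf15 (5 of the 6 arrays, p up to 0.12). None of 20 macrophage genes and none of 19 endoderm genes passed. The macrophage list had a mean level of 5.40 to 5.45 at 6 h and 5.26 to 5.42 at 12 h on the RA arrays.

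Neuronal genes fell where they changed. Of 27 measured neuronal genes 5 fell and none rose (18.5%, beside 11.0%; median -0.10). Stmn2, a stathmin of growing axons, read 9.03, 9.02 and 9.25 at 6 h and 7.27, 6.93 and 7.50 at 12 h in RA explants. The groups did not overlap. Control arrays read 8.96, 8.91 and 8.55 and 7.77, 7.95 and 7.86. The RA fall was -1.86 (SE 0.18), or 3.63-fold (adjusted p = 9.91e-07), and the control fall -0.95 (adjusted p = 0.00217). Their difference was -0.91, with an interval from -1.43 to -0.39 and an unadjusted p of 0.00128 in limma, but an adjusted p of 1.0. A second probe set of Stmn2 fell by 0.99 (adjusted p = 0.00454), and a dim one had a change of -0.19 (adjusted p = 0.495).

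Gap43, the growth cone protein, fell by 0.92 (adjusted p = 0.0471), and Syt1, a calcium sensor of synaptic vesicles, by 0.85 (adjusted p = 0.00447). Elavl2 and Neurod1 fell by 0.50 and 0.41 (adjusted p = 0.0348 and 0.0248). In controls the changes were -0.49 for Gap43, -0.79 for Syt1, -0.24 for Elavl2 and -0.00 for Neurod1. Syt1, Elavl2 and Neurod1 lay at or below 4.54 on all RA arrays, and RMA compresses differences at such levels. With scan day as a random block Stmn2 and Syt1 passed, and Gap43, Elavl2 and Neurod1 did not (adjusted p = 0.128, 0.206 and 0.0751). The latter 3 also lost their call without 1 RA array: Gap43 (5 of the 6 arrays, p up to 0.15), Elavl2 (5 of the 6 arrays, p up to 0.145) and Neurod1 (3 of the 6 arrays, p up to 0.149). The whole neuronal list had a mean level of 6.00 to 6.02 at 6 h and 5.79 to 5.86 at 12 h on RA arrays.

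Of 16 measured glia and neural progenitor genes 2 fell and 1 rose (18.8%, beside 11.0% of all genes, median -0.16). Of these 16 genes 5 had a change above 0. The mean level of this list was 7.49 to 7.62 at 6 h and 7.36 to 7.39 at 12 h on RA arrays. On control arrays it was 7.53 to 7.60 and 7.46 to 7.68. Fabp7, the brain lipid-binding protein of radial glia, read 10.29, 10.06 and 10.07 at 6 h and 8.93, 8.85 and 8.77 at 12 h in RA explants. It was about level in controls, at 10.72, 9.90 and 9.79 and 10.01, 10.11 and 9.64, where the groups overlapped. The RA fall was -1.29 (SE 0.27) (adjusted p = 0.00316), the control change -0.22 (adjusted p = 0.778), and their difference -1.07 (95% interval -1.87 to -0.28, adjusted p = 1.0). Sox3, a SOXB1 factor that keeps neural progenitors undifferentiated, read 8.31, 7.72 and 8.10 and then 6.93, 7.11 and 7.25, a fall of 0.94 (adjusted p = 0.000955), with -0.13 in controls. A second Sox3 probe set fell by 1.36 (adjusted p = 0.000223), and the other 2, with changes of 0.06 and -0.01, did not pass.

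Of 16 measured neural tube epithelium genes only Sox3 passed (6.25%, beside 11.0% of all genes). The RA median change was -0.20, with 2 of 16 genes above 0, and the control median was -0.08. The mean level of the list was 6.80 to 6.91 and then 6.55 to 6.65 on RA arrays, without overlap. On control arrays it was 6.74 to 6.83 and 6.65 to 6.81, which overlap. Sox2, a close relative of Sox3, had a change of -0.95 (adjusted p = 0.158). Hes5, a Notch target, fell by 0.83 (adjusted p = 0.0197), whereas Nes, the intermediate filament nestin, rose by 0.76 (adjusted p = 0.00811). Their control changes were -0.19 and 0.35. Second probe sets of Hes5 and Nes had RA changes of 0.14 and 0.08 (adjusted p = 0.637 and 0.835). With scan day as a random block Fabp7 and Sox3 passed, and Hes5 and Nes did not (adjusted p = 0.204 and 0.0511). These also lost their call without 1 RA array: Hes5 (3 of the 6 arrays, p up to 0.122) and Nes (6 h array 3, p up to 0.0642).

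Crest transcription factors as a list stayed near the background in RA explants. Of 28 measured, 1 rose and 1 fell (7.14%, beside 11.0%; median -0.02). Tcof1, the nucleolar protein altered in Treacher Collins syndrome, rose by 1.10 (adjusted p = 0.00328), and Id4, an inhibitor of bHLH factors, fell by 0.94 (adjusted p = 0.00906). Their control changes were 0.67 and -1.15 (adjusted p = 0.0934 and 0.00328). In controls 3 of the 28 fell and none rose, where 6.23% of all genes passed (3.25% higher and 2.98% lower). In RA explants Snai2 had a change of -0.63 (adjusted p = 0.174), Sox10 of 0.30 (adjusted p = 0.395) and Twist1 of 0.14 (adjusted p = 0.732). None of 8 melanocyte genes passed, and all 8 had a negative sign, from -0.45 for tyrosinase (adjusted p = 0.0532) to -0.01 for Oca2. Among 14 cartilage and bone genes, only Hapln1, a link protein of hyaluronan matrix, passed (7.14%, beside 11.0%). Hapln1 rose by 1.18 (adjusted p = 0.00909, and 0.107 with scan day as a random block). It was dim on the 6 h RA arrays, at 4.09, 4.22 and 4.40. Its control change was 0.94 (adjusted p = 0.0535). Calls lost without 1 RA array were those of Id4 (6 h array 1, p up to 0.0506) and Hapln1 (6 h array 1 or 12 h array 3, p up to 0.084).

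Surface ectoderm and epithelial genes fell at 4 and rose at 1 of 22 measured (22.7%, beside 11.0%; median -0.02). Epcam, the epithelial adhesion molecule, went from 5.13, 5.12 and 5.52 to 4.09, 4.31 and 3.99 and fell by 1.12 (adjusted p = 0.000359). Cldn6, a tight junction claudin, went from 8.60, 8.13 and 8.46 to 6.50, 6.61 and 7.49 and fell by 1.53 (adjusted p = 0.00672). Cldn7 fell by 1.75 (adjusted p = 0.00529), on a probe set of a type that can also read related transcripts. Among other genes, Lamb1, Kif20a, E2f1, Atf3, Nop58, Nid2, Styx and Gap43 were also read by probe sets of such types. Cldn3 fell by 0.39 (adjusted p = 0.043), and Sfn, the 14-3-3 protein stratifin, rose by 0.75 (adjusted p = 0.00811). Controls fell as well, with changes of -0.78 for Epcam, -2.21 for Cldn6 and -1.81 for Cldn7. Those of Cldn3 and Sfn were -0.13 and 0.14. A second Cldn3 probe set had an RA change of -0.07 (adjusted p = 0.781). The whole list read 7.16 to 7.36 at 6 h and 6.96 to 7.22 at 12 h on RA arrays, ranges that overlap. Cldn3 and Sfn did not pass with scan day as a random block (adjusted p = 0.272 and 0.119). Without 1 RA array the call was lost for Cldn3 (6 of the 6 arrays, p up to 0.143) and Sfn (12 h array 3, p up to 0.056).

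**Figure D3:**
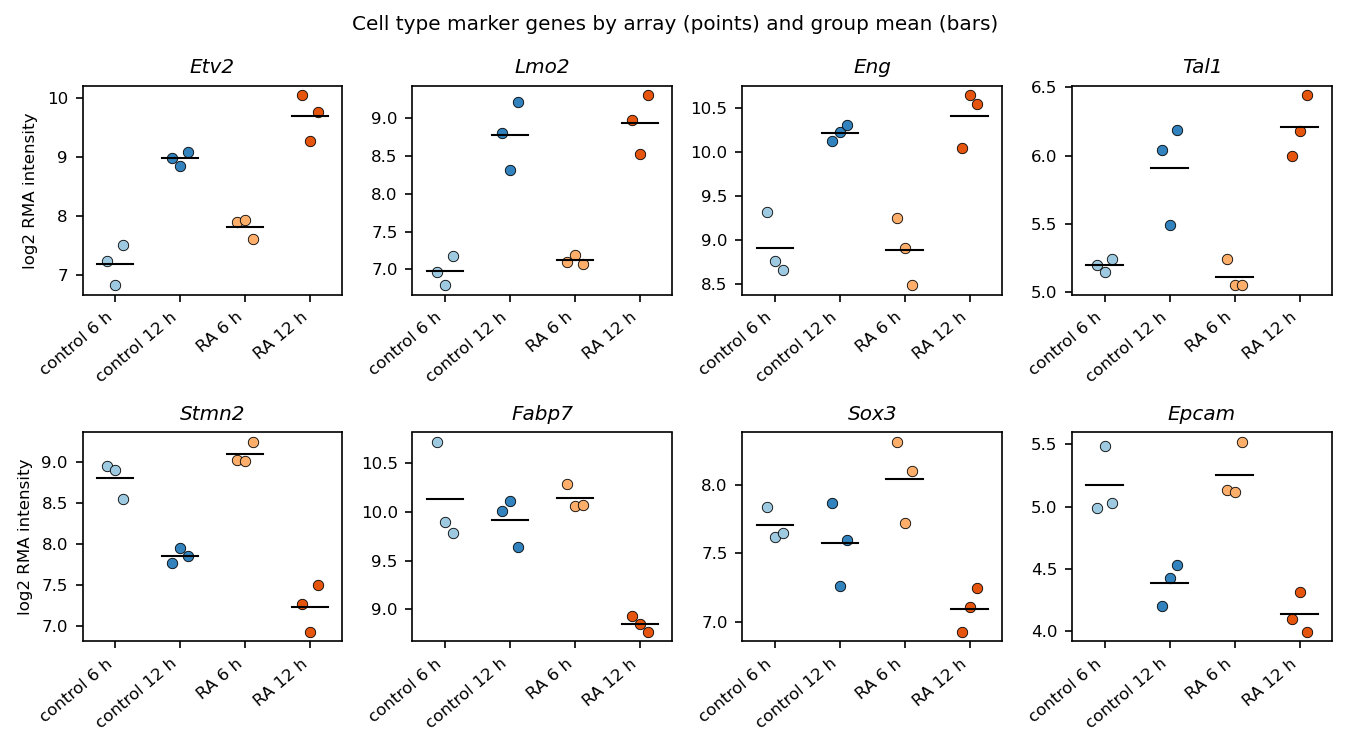
The log2 RMA intensity (y axis) of 8 marker genes is shown by array (points) with the group mean (bar) for control and RA explants at 6 and 12 h; the y axes differ between genes and do not start at 0. The vessel and blood genes Etv2, Lmo2, Eng and Tal1 are higher at 12 h in both treatments, Stmn2 and Epcam are lower in both, and Fabp7 and Sox3 are lower at 12 h without overlap in RA explants, with overlap in controls.

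Matrix genes changed in both directions. Of 45 measured, 4 rose and 1 fell (11.1%, beside 11.0%; median 0.17). Nid2, nidogen of basement membranes, read 5.69, 6.01 and 5.92 at 6 h and 6.89, 7.94 and 7.82 at 12 h, and array 1 was the lowest at 12 h. It rose by 1.68 (adjusted p = 0.000309), and by 1.12 in controls (adjusted p = 0.0133). The laminins Lama4 and Lamb1 rose by 1.09 and 0.60 (adjusted p = 0.0076 and 0.00789), although a dim second Lama4 probe set did not (adjusted p = 0.932). Ccn2, the connective tissue growth factor, rose by 0.83 (adjusted p = 0.00226). Col1a1, a collagen I chain, fell by 1.07 (adjusted p = 0.00889), while its other probe set had a change of -0.18 (adjusted p = 0.835). Control changes were 0.75 for Lama4, 0.84 for Lamb1, 0.33 for Ccn2 and -1.14 for Col1a1. Lama4 and Col1a1 did not pass with scan day as a random block (adjusted p = 0.0638 and 0.0935). Leaving out 1 RA array ended the call for Col1a1 (6 h array 1 or 12 h array 3, p up to 0.0673) and Lamb1 (6 h array 3, p up to 0.0763).

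Of 25 matrix proteases and their inhibitors, 4 rose and 1 fell (20.0%, beside 11.0% of all genes, median -0.08). Mmp9, gelatinase B, went from 9.32, 9.12 and 8.81 to 9.77, 10.22 and 10.21 and rose by 0.98 (adjusted p = 0.00477). Timp1, which blocks such proteases, went from 11.14, 11.12 and 10.57 to 9.97, 10.22 and 9.81 and fell by 0.94 (adjusted p = 0.00058). Plat, the tissue plasminogen activator, rose by 0.82, Timp3 by 0.62 and Serpinf1 by 0.61 (adjusted p = 0.0228, 0.0238 and 0.0325). Controls changed by 0.60 for Mmp9, -0.64 for Timp1, 0.37 for Plat, 0.32 for Timp3 and 0.47 for Serpinf1. Second probe sets of Mmp9, Timp1 and Serpinf1 had RA changes of 0.57, -0.32 and 0.31 (adjusted p = 0.206, 0.275 and 0.334). Mmp9 and Timp1 passed with scan day as a random block, and Plat, Timp3 and Serpinf1 did not (adjusted p = 0.1, 0.127 and 0.179). The latter 3 also lost their call without 1 RA array: Plat (5 of the 6 arrays, p up to 0.103), Timp3 (3 of the 6 arrays, p up to 0.112) and Serpinf1 (5 of the 6 arrays, p up to 0.146).

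Of 36 adhesion genes 3 fell and 1 rose (11.1%, beside 11.0% of all genes), a share near the background. The heparan sulfate proteoglycan Sdc4, syndecan 4, read 8.91, 7.98 and 8.58 at 6 h and 5.88, 5.99 and 5.90 at 12 h, where its arrays lay close together. It fell by 2.57, or 5.94-fold (adjusted p = 0.000885), and controls fell by 2.95. Gpc4, a glypican, and the tetraspanin Cd9 fell by 0.77 and 0.60 (adjusted p = 0.0129 and 0.033). Ctnnb1, beta-catenin, rose by 0.53 (adjusted p = 0.012). In controls Gpc4, Cd9 and Ctnnb1 changed by -0.81, -0.30 and 0.30. These 3 did not pass with scan day as a random block (adjusted p = 0.06, 0.125 and 0.0589 for Gpc4, Cd9 and Ctnnb1). Without 1 RA array the call was lost for Gpc4 (3 of the 6 arrays, p up to 0.0824), Cd9 (5 of the 6 arrays, p up to 0.134) and Ctnnb1 (6 h array 1 or 12 h array 3, p up to 0.0766).

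Of 22 smooth muscle and cytoskeleton genes 3 rose and none fell (13.6%, beside 11.0% of all genes). Their median change was 0.33, beside -0.01 over all genes. Smtn rose by 0.55, Ctnna1 by 0.39 and Tpm4 by 0.33 (adjusted p = 0.00354, 0.043 and 0.033). The control changes of Smtn, Ctnna1 and Tpm4 were 0.29, 0.08 and 0.11. None of these 3 passed with scan day as a random block (adjusted p = 0.0589, 0.171 and 0.231), and calls lost without 1 RA array were those of Ctnna1 (4 of the 6 arrays, p up to 0.255) and Tpm4 (5 of the 6 arrays, p up to 0.211). Their abundant relatives Acta2 and Tagln had changes of -0.11 and -0.01 (adjusted p = 0.721 and 0.963).

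Signalling genes passed in small numbers, at shares near or below the 11.0% of all genes (6.27% higher and 4.73% lower). Tgfbi, a matrix protein named for its induction by TGF-beta, went from 6.45, 7.10 and 6.55 to 8.14, 8.49 and 8.44 and rose by 1.65 (adjusted p = 0.000986), though a dim second probe set did not (adjusted p = 0.828). Of the 36 TGF-beta and BMP genes, the receptor Acvr1 rose by 0.43 and the inhibitory Smad7 fell by 0.67 (adjusted p = 0.0182 and 0.0278), which with Tgfbi makes 8.33%. Acvr1 was dim on all RA arrays, at 3.56, 3.64 and 3.45 and then 4.23, 3.91 and 3.81. Among 37 FGF, PDGF, IGF and hedgehog genes, the hedgehog transducer Smo and the hedgehog target Gli1 rose by 0.72 and 0.56 (adjusted p = 0.0426 and 0.0129; 5.41%). In controls the changes were 1.27 for Tgfbi, 0.38 for Acvr1, -0.95 for Smad7, 0.74 for Smo and 0.63 for Gli1. Of 26 Notch and Eph-ephrin genes 3 fell (11.5%), the receptor Notch2 by 0.81 and the targets Hes5 by 0.83 and Hes1 by 0.55 (adjusted p = 0.0301, 0.0197 and 0.0126). A second Notch2 probe set had a change of 0.14 (adjusted p = 0.626), and a second Hes5 probe set of 0.14 (adjusted p = 0.637). The control changes of Notch2, Hes5 and Hes1 were -0.48, -0.19 and -0.54. Of 27 Wnt genes only Apc, a part of the beta-catenin destruction complex, passed (3.7%). Apc rose by 0.54 (adjusted p = 0.015), with a control change of 0.10. Tgfbi and Gli1 passed with scan day as a random block. Acvr1, Smad7, Smo and Apc did not (adjusted p = 0.179, 0.108, 0.178 and 0.186), nor did Notch2, Hes5 and Hes1 (adjusted p = 0.179, 0.204 and 0.0866). All of these genes but Tgfbi lost their call without 1 RA array: Acvr1 (3 of the 6 arrays, p up to 0.127), Smad7 (4 of the 6 arrays, p up to 0.14), Smo (6 of the 6 arrays, p up to 0.151), Gli1 (6 h array 3 or 12 h array 1, p up to 0.0643), Notch2 (6 of the 6 arrays, p up to 0.102), Hes5 (3 of the 6 arrays, p up to 0.122), Hes1 (6 h array 1 or 12 h array 2, p up to 0.0592) and Apc (6 h array 1 or 12 h array 1, p up to 0.0655).

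Some genes of dividing cells rose. Of 39 measured cell cycle and replication genes 8 rose and 1 fell (23.1%, beside 11.0%; median 0.11). Top2a, the topoisomerase of dividing cells, read 7.59, 7.84 and 7.65 at 6 h and 8.76, 8.68 and 9.09 at 12 h, a rise of 1.15 (SE 0.23) (adjusted p = 0.00265). Mki67, which codes for the proliferation marker Ki-67, read 8.35, 8.72 and 8.29 and 9.11, 9.45 and 9.29, a rise of 0.83 (SE 0.16) (adjusted p = 0.0014). Neither overlapped between the times. The polymerase Pola1, the checkpoint kinase Bub1 and the mitotic kinesin Kif20a rose by 0.91, 0.81 and 0.79 (adjusted p = 0.00574, 0.0182 and 0.00148). Control changes were 0.85 for Top2a, 0.66 for Mki67, 0.85 for Pola1, 0.84 for Bub1 and 0.71 for Kif20a. Other Bub1 probe sets had RA changes of 0.13 and -0.53 and did not pass (adjusted p = 0.692 and 0.249). A second Mki67 probe set, at 0.21, did not pass either (adjusted p = 0.541). A second Kif20a probe set rose by 1.20 (adjusted p = 0.00436). The gene that fell, Cenpa, the histone variant of centromeres, had a change of -0.54 (adjusted p = 0.0288; 0.257 with scan day as a random block), and was named after its values were seen. The CDK subunit Cks2 also fell, as given below. In controls 6 of these 39 rose and none fell, where 6.23% of all genes passed (3.25% higher and 2.98% lower). The rises of Top2a, Mki67 and Kif20a passed with scan day as a random block, and those of Pola1 and Bub1 did not (adjusted p = 0.0682 and 0.089). Without 1 RA array the call was lost for Bub1 (6 h array 1 or 12 h array 3, p up to 0.123).

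Of 23 D cyclins, CDK inhibitors and related genes 4 fell and none rose (17.4%, beside 11.0% of all genes; median 0.01). The other 19 did not pass. Ccnd2, cyclin D2, read 8.02, 8.76 and 8.62 at 6 h and 6.83, 6.44 and 6.75 at 12 h and fell by 1.79 (adjusted p = 0.0258; 0.16 with scan day as a random block). Ccnd3 fell by 0.61, the growth arrest gene Gadd45a by 0.88 and the transcription factor E2f1 by 0.65 (adjusted p = 0.0244, 0.00196 and 0.00144). Controls changed by -1.71 for Ccnd2, -0.72 for Ccnd3, -0.59 for Gadd45a and -0.61 for E2f1, and all 4 passed there. A second E2f1 probe set fell by 1.01 (adjusted p = 0.000182). Ccnd3 did not pass with scan day as a random block (adjusted p = 0.204). Leaving out 1 RA array ended the call for Ccnd2 (5 of the 6 arrays, p up to 0.0897) and Ccnd3 (3 of the 6 arrays, p up to 0.159).

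Of 21 measured genes of ribosome biogenesis and translation 5 rose, none fell and 16 did not pass (23.8%, beside 11.0% of all genes; median 0.10). Ncl, nucleolin, read 11.25, 11.50 and 11.58 and then 12.10, 12.01 and 12.28, a rise of 0.69 (SE 0.12) (adjusted p = 0.000885). Bop1, a factor of the large subunit, rose by 1.14, and Nop58, Nop56 and Nolc1 rose by 0.62, 0.65 and 0.57 (adjusted p = 0.00622, 0.00517, 0.0487 and 0.031). Controls changed by 0.47 for Ncl, 0.69 for Bop1, 0.80 for Nop58, 0.64 for Nop56 and 0.36 for Nolc1. Second probe sets of Bop1 and Nop56 had RA changes of 0.43 and 0.22 (adjusted p = 0.325 and 0.399). Nop56 did not pass with scan day as a random block (adjusted p = 0.104). Calls lost without 1 RA array were those of Bop1 (12 h array 3, p up to 0.0553), Nop56 (5 of the 6 arrays, p up to 0.22) and Nolc1 (4 of the 6 arrays, p up to 0.175).

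Stress genes were mixed. Of 27 heat shock and unfolded protein response genes 4 rose and 1 fell (18.5%, beside 11.0% of all genes, median 0.15). The chaperone Hspa5 rose by 0.61, the factor Atf4 by 0.59, its target Asns by 0.45 and Herpud1 by 0.67 (adjusted p = 0.0131, 0.0063, 0.0224 and 0.00503). In controls the changes were 0.35 for Hspa5, 0.41 for Atf4, 0.54 for Asns and 0.80 for Herpud1. Dnajb9, a co-chaperone of Hspa5, fell by 1.32 (adjusted p = 0.00813), with a control change of -0.78. Its second, dim probe set had an RA change of -0.23 (adjusted p = 0.612). The genes of this list that passed thus did not all move in 1 direction. Gsr, glutathione reductase, read 9.45, 8.97 and 9.63 at 6 h and 7.77, 7.45 and 7.25 at 12 h and fell by 1.86 (adjusted p = 1.52e-05). Its control change was -1.69 (adjusted p = 0.000171). Sod2, the mitochondrial superoxide dismutase, fell by 0.60 (adjusted p = 0.0246), which makes 2 of 22 oxidative stress genes (9.09%, beside 11.0%). Sod2 changed by -0.20 in controls. Hspa5, Asns and Sod2 did not pass with scan day as a random block (adjusted p = 0.108, 0.127 and 0.158). Without 1 RA array the call was lost for Hspa5 (6 h array 1 or 12 h array 3, p up to 0.115), Atf4 (12 h array 3, p up to 0.0546), Asns (4 of the 6 arrays, p up to 0.185), Herpud1 (6 h array 1, p up to 0.0569) and Sod2 (4 of the 6 arrays, p up to 0.155).

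Among 30 immediate early genes 2 fell and 1 rose (10.0%, beside 11.0% of all genes), a share near the background. Jund went from 11.13, 10.84 and 10.39 to 9.66, 9.68 and 9.45 and fell by 1.19 (adjusted p = 4.84e-05). Dusp1, a MAP kinase phosphatase, fell by 0.83 (adjusted p = 0.000955), and the stress factor Atf3 rose by 0.96 (adjusted p = 0.00473). Jund, Dusp1 and Atf3 also passed in controls, with changes of -1.09, -0.86 and 0.72 (adjusted p = 0.000331, 0.00119 and 0.0451). Other Atf3 probe sets had RA changes of 0.82 and -0.14 (adjusted p = 0.00178 and 0.613). Fos and Egr1 had changes of 0.74 and 0.54 (adjusted p = 0.498 and 0.249). Of 22 p53 and apoptosis genes, Mcl1, which protects cells, rose by 0.87 (adjusted p = 0.00406). Bad and Bcl2l1 fell by 0.58 and 0.37 (adjusted p = 0.0454 and 0.0195), which makes 13.6%, beside 11.0% of all genes. The control changes of Mcl1, Bad and Bcl2l1 were 0.50, -0.41 and -0.45. None of these 3 passed with scan day as a random block (adjusted p = 0.0539, 0.192 and 0.112). Bad and Bcl2l1 also lost their call without 1 RA array: Bad (6 of the 6 arrays, p up to 0.168) and Bcl2l1 (3 of the 6 arrays, p up to 0.116). Second probe sets of Bad and Bcl2l1 had RA changes of 0.02 and -0.19 (adjusted p = 0.978 and 0.503). None of 29 inflammation genes and none of 26 glycolysis and hypoxia genes passed; Ccl2, a chemokine, had a change of 1.11 (adjusted p = 0.0527) and the glucose transporter Slc2a1 of -0.86 (adjusted p = 0.0504).

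Lipid synthesis genes also split. Of 18 measured 3 rose and 2 fell (27.8%, beside 11.0% of all genes, median 0.37). Fasn, fatty acid synthase, rose by 1.00, Idi1 of the isoprenoid pathway by 0.87 and Acly by 0.43 (adjusted p = 0.0254, 0.00312 and 0.00785). Sc5d, a late enzyme of cholesterol synthesis, read 7.25, 7.28 and 7.54 at 6 h and 5.32, 5.61 and 5.43 at 12 h and fell by 1.90 (adjusted p = 0.000649), with a second probe set falling by 1.09 (adjusted p = 0.00135). Fdft1, squalene synthase, fell by 0.69 (adjusted p = 0.0167). The control change of Sc5d was -0.87 (adjusted p = 0.141). Those of Fasn, Idi1, Acly and Fdft1 were 0.53, 0.67, 0.28 and -0.72. Fasn, Idi1 and Fdft1 did not pass with scan day as a random block (adjusted p = 0.0584, 0.0742 and 0.0502). Leaving out 1 RA array ended the call for Fasn (5 of the 6 arrays, p up to 0.109) and Fdft1 (3 of the 6 arrays, p up to 0.0639).

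The 14 largest rises and 14 largest falls among named genes whose arrays did not overlap held few members of one pathway. Beside Etv2, Lmo2, Nid2, Tgfbi and Eng, the rises were Ddx24, an RNA helicase, Sptan1, a spectrin of the membrane skeleton, Raly, an RNA-binding protein, Fyn, a Src family kinase, Smarca4, the BRG1 motor of SWI/SNF, Ogfr, Pprc1, Snw1 and Pik3ca. They ran from 1.35 for Pik3ca, a catalytic subunit of PI3 kinase, to 1.87 for Etv2. Fyn had the smallest adjusted p among them, at 4.5e-06, with RA arrays at 7.62, 8.10 and 7.97 and then at 9.45, 9.41 and 9.40.

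The falls ran from -1.67 for Max to -2.70 for Gsdme. Gsdme, a pore-forming gasdermin, read 7.87, 7.75 and 7.60 at 6 h and 4.83, 4.67 and 5.63 at 12 h, a 6.49-fold fall (adjusted p = 5.68e-05), and its other, dim probe set had a change of 0.05 (adjusted p = 0.861). Birc6, a large inhibitor of apoptosis, read 10.48, 10.00 and 9.83 and 7.50, 7.95 and 7.75 (change -2.37, adjusted p = 0.000131). Max, the partner of Myc, read 10.27, 10.01 and 10.12 and 8.46, 8.56 and 8.38, with the smallest adjusted p of the falls at 5.07e-07. Cks2, a CDK subunit, and Ptprs, a receptor phosphatase, fell by 1.70 and 1.72 (adjusted p = 2.3e-05 and 0.00151). Styx and Prr13 fell by 2.06 and 1.90 (adjusted p = 0.00561 and 7.6e-05). Styx was dim at 12 h, at 4.16, 4.37 and 4.24.

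Of these 28 genes all 28 had the same sign in controls and 25 passed there. The exceptions were Sptan1, Smarca4 and Sc5d, with control changes of 0.75, 0.65 and -0.87 (adjusted p = 0.288, 0.26 and 0.141). With scan day as a random block 27 of the 28 passed, all but Ccnd2. Probe sets of 1 gene did not always move together, since second probe sets of Ddx24, Smarca4, Snw1 and Pik3ca had changes of -0.01, -0.20, -0.54 and 0.21 and did not pass (adjusted p = 0.972, 0.362, 0.0766 and 0.593).

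**Figure D4:**
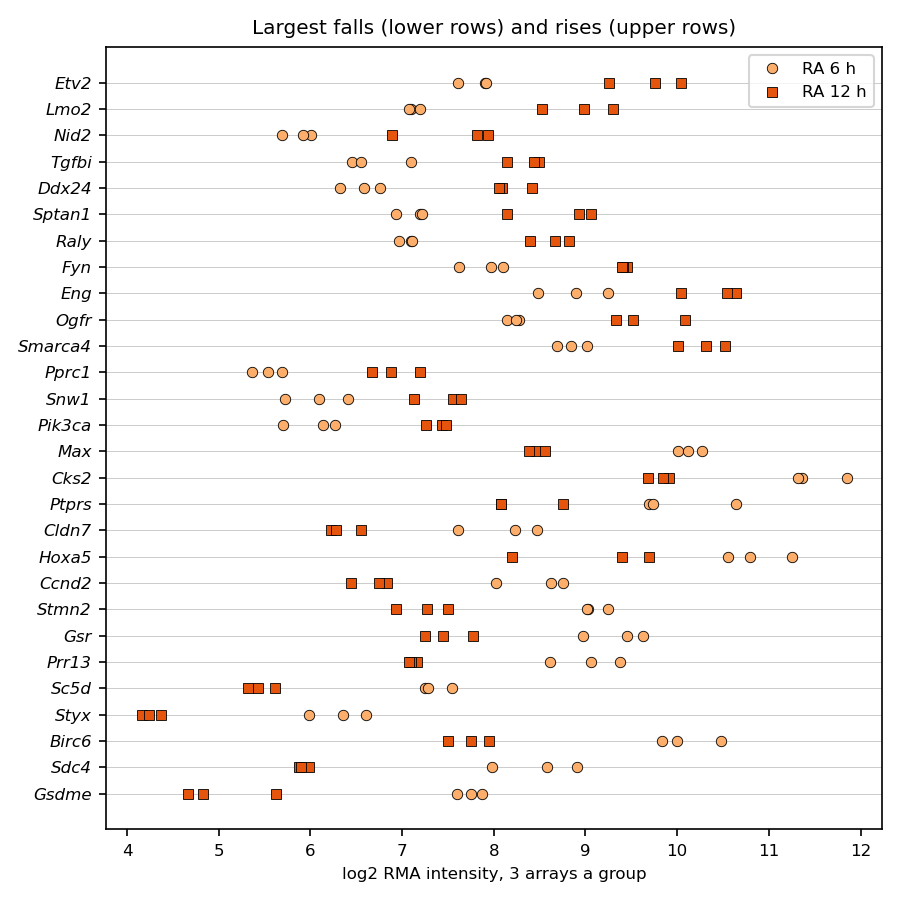
The log2 RMA intensity (x axis) of the 28 genes is shown for the 3 RA arrays at 6 h (circles) and the 3 at 12 h (squares), sorted by change with the largest fall, Gsdme, at the bottom and the largest rise, Etv2, at the top. Within each gene the circles and squares do not overlap, which the choice of these genes required.

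Arrays of longer exposure show on which side of the 6 h arrays the same probe sets later lay. On the 4 RA arrays of 24 h, 90.0% to 98.2% of the 1197 probe sets lay beyond all 6 h RA arrays on the side of the 12 h change, against 51.3% to 62.3% of all probe sets. On the 3 RA arrays of 48 h the shares were 76.2% to 88.6%, against 44.7% to 57.9%. The 24 h array with the lowest share, array 2, was the one of 4 that had a scan day of its own. The other 24 h arrays shared scan days and lot with the 12 h arrays, so a shared day and a lasting change cannot be told apart for them. The 6 h arrays enter both sides of this count.

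A measure of RNA length also differed between the times. The array reads some control transcripts at both ends, and the 3′ minus 5′ difference grows as copies made from the RNA become shorter. For pyruvate carboxylase (Pcx) it was 0.39 to 0.55 on the 6 h RA arrays and 1.08 to 1.16 on the 12 h RA arrays, and 0.37 to 0.56 and 1.00 to 1.08 on the control arrays. The times did not overlap in either treatment. For Actb it was 1.47 to 1.91 and 1.74 to 2.42 in RA explants, which overlap, and 1.22 to 1.65 and 1.83 to 1.92 in controls, which do not. For Gapdh it was 1.90 to 2.02 and 1.20 to 2.00 in RA explants and 1.55 to 1.94 and 1.08 to 1.77 in controls, in the opposite direction and with overlap. Tfrc overlapped, at 1.47 to 1.64 and 1.39 to 1.63 in RA explants and at 1.51 to 1.71 and 1.51 to 1.84 in controls. Genes that rose spanned a median of 29.7 kb of genome (513 genes) and those that fell 13.7 kb (385 genes), beside 19.7 kb for all 8095 genes with a span in the mouse table. A span of genome counts introns as well, so it is no measure of the length of the RNA. The part of RNA length in the changes above was not tested.

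**Figure D5:**
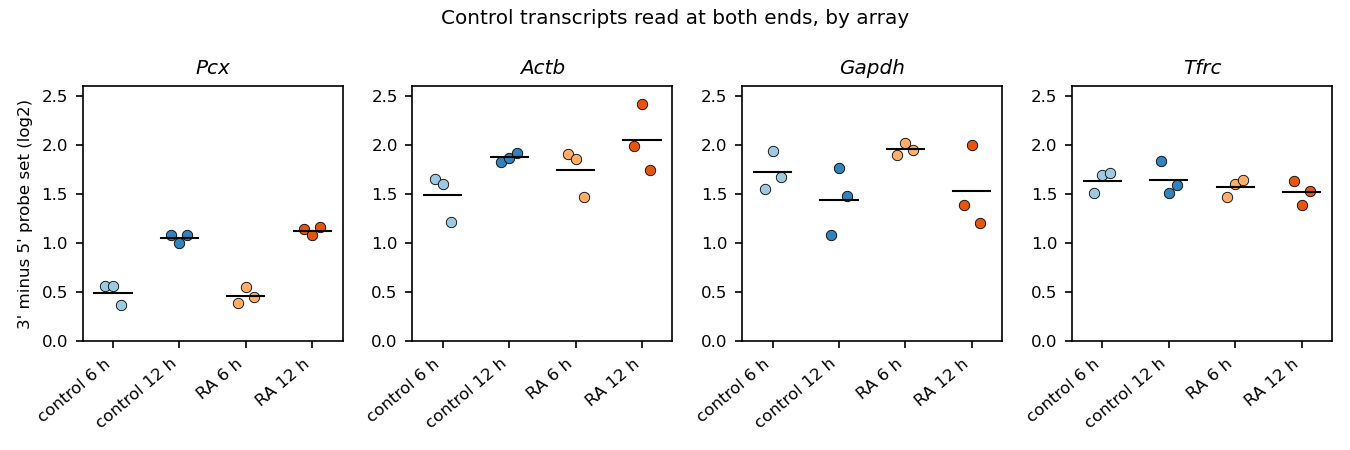
The 3′ minus 5′ difference in log2 intensity (y axis) of 4 control transcripts is shown by array (points) with group means (bars) for control and RA explants at 6 and 12 h. Pcx separates the times in both treatments, with RA arrays at 0.39 to 0.55 at 6 h and at 1.08 to 1.16 at 12 h, whereas Tfrc does not.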

How the data were processed

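Per the labels, the authors made the deposited intensity values with RMA Express 0.2, a method of background correction, quantile normalisation and summary over probes, and GeneSpring followed. The sources used here do not give whether GeneSpring altered them. The deposited intensities were linear, from 3.92 to 17003, and log2 was taken once. RMA has no detection call and narrows differences between dim probe sets, and precision is set by the few arrays. Of 12488 probe sets, 66 controls were left out. Of the rest 10833 named 1 gene, 396 several and 1193 none. Among several probe sets of a gene (8251 genes), the one of highest mean over 27 arrays was read.

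Arrays were grouped by title. Differences were fitted with limma 3.58.1 in R 4.3.3, in 1 model over 8 groups of treatment and time (27 arrays), with empirical Bayes moderation and Benjamini-Hochberg adjustment over 12422 probe sets, two-sided, at 0.05. The script was tested on simulated data. Scan day and chip lot came from the scanner records. Replicate numbers did not pair RA arrays across times: deviations from group means correlated by -0.146 to 0.065 for equal numbers. Between control and RA arrays this correlation was 0.447 to 0.470 at 6 h but -0.052 to 0.257 at 12 h. Further tools were Python 3.11.15 with pandas 2.3.3, with numpy 2.4.6, and with matplotlib 3.10.9 for plots.

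Named genes were the 14 largest rises and falls without overlap, genes chosen as RA-responsive, and list members. Up to 5 members past the threshold came from each of 31 lists (769 of 884 genes on the array). The members and lists were chosen with earlier results of these data known. Alternatives were fits on fewer arrays, blocks for scan day, record pair or replicate number, other normalizations, a filter on dim probe sets, trend and robust moderation, array weights, moving 48 h control 3 to the RA group (as its description would have it), and leaving out each array. Leaving out all arrays of a scan day, and array pairs as a block for RA against control, were added after seeing the data.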

Additional observations from a re-analysis of the deposited data

How the results depend on the processing

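The 1197 calls in RA explants became 1933 with only the RA arrays of 6 and 12 h, 509 with scan day as a random block and 2286 with array weights. The count with the replicate block was 1240, and it ended the call of 3 named genes. Leaving out 1 RA array gave 549 to 904 calls. Leaving out all arrays of a scan day gave 102, 501, 129 and 672 calls for scan days 5, 6, 7 and 8, where days 5 and 6 held the 12 h arrays. The 674 calls in controls became 1678 with only the 12 arrays of 6 and 12 h, 179 with scan day as a random block and 2462 with array weights, 760 with the replicate block, and 261 to 474 without 1 control array. Without scan days 5, 6, 7 and 8 they were 0 (882 at an unadjusted p below 0.05 in limma), 241, 30 and 310. The difference between RA and control change had 0 calls in every alternative run, with 54 to 931 probe sets at an unadjusted p below 0.05. The cause of these moves was not tested. The other alternatives left both counts within 1.5 times, and no named gene that passed changed sign. Among the 28 largest changes, Hoxa5 and Ccnd2 did not pass in every alternative fixed at the start, Hoxa5 when 48 h control 3 was grouped with RA.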

Other observations

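Gene families chosen by their symbols after the values were seen are given as counts with no test. Of 67 respiratory chain genes, 11 were lower and 1 higher at 12 h in RA explants (17.9%, beside 11.0% of all genes, 6.27% higher and 4.73% lower; median -0.23, beside -0.01 over all genes). Examples are Ndufc1 of complex I, with a change of -1.22 (adjusted p = 4.84e-05), and Cox5b of cytochrome oxidase, with -0.94 (adjusted p = 0.00198). Ndufs1, a large complex I subunit, went the other way with 1.00 (adjusted p = 0.000538). Of 61 mitochondrial ribosome genes 4 were lower and 1 higher (8.2%, median -0.09), a share below that of all genes, and of 46 proteasome genes 7 lower and 3 higher (21.7%, median -0.04). In controls, where 6.23% of all genes passed, 3 respiratory chain genes were lower and 1 higher, and 1 mitochondrial ribosome gene was lower. Of the proteasome genes 4 were higher and 3 lower there.

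Kinesins were higher for 7 of 18 genes and lower for none (38.9%, beside 11.0% of all genes, median 0.23). Among them were the mitotic motors Kif23 with 0.78 (adjusted p = 0.0173) and Kif4 with 0.67 (adjusted p = 0.00136). Splicing factors of the Prpf and Sf3 families passed at 8 of 16 genes, higher for 7 and lower for 1 (median 0.41), with Prpf8, the core of the spliceosome, at 1.15 (adjusted p = 0.00487). RNA helicases were higher for 6 of 30 and lower for none (20.0%, beside 11.0%, median 0.20). Of 36 ribosomal protein genes 2 were higher and none lower (5.56%, below the share of all genes, median 0.05). In controls, where 6.23% of all genes passed, 4 kinesins, 3 RNA helicases and 2 ribosomal protein genes were higher and none lower. Of the splicing factors 2 were higher and 1 lower there.

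Among genes that passed in RA explants, the differences of RA from control change were largest for Foxb1, a forkhead factor of the neural tube, with -1.10 (SE 0.31), and for Dlk1, a Notch-related surface protein of progenitors, with 1.08 (SE 0.44). Foxb1 had mean levels of 6.51 at 6 h and 5.46 at 12 h in RA explants and of 6.14 and 6.17 in controls. Dlk1 had 7.73 and 8.77 in RA explants and 7.90 and 7.86 in controls. Neither difference passed (adjusted p = 1.0), with unadjusted p of 0.00158 and 0.0212 in limma.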
